A study of Mus musculus with 6 samples.

Results

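The ATF4 stress and amino acid genes are a set of 33 genes of the integrated stress response, the programme that cells start when amino acids, haem or protein folding fail. They were listed by name, but with earlier results of these data known, so counts of calls among them are descriptions. A listed gene without a row in the deposited table counts as not detected. Rows were found for 32 of the 33 among 17217, and all 32 had a mean of at least 1 TPM (a share of all transcripts that is scaled by gene length), which 13034 rows of the table reached. Vldlr, the very low density lipoprotein receptor gene, is the member without a row. The levels come from bulk RNA sequencing of 6 libraries of cells labelled as bone marrow-derived macrophages, 3 labelled Control (genotype Con, Cd74 wild type per the design text) and 3 labelled Knockout (genotype KO, Cd74-/-). CD74, or invariant chain, escorts MHC class II molecules and also binds the cytokine MIF at the cell surface. The shared preparation text names only wild-type donors for marrow, and genotype was therefore taken from the titles, the genotype labels and the design text. Per the labels, marrow from mice aged 8 weeks was cultured with M-CSF, the macrophage growth factor, at 30 ng/mL, and every library, Control included, came from cells given lipopolysaccharide (LPS, a bacterial cell wall component) at 100 ng/mL for 24 h. No library without LPS was analysed here, so the values describe 2 genotypes under LPS and not the response to LPS. The labels put all Control libraries in batch 1 and all Knockout libraries in batch 2, so for every result here batch and genotype cannot be told apart, and no value within a batch can be given because each batch holds 1 group. The labels name no separate animals or cultures, so p-values measure the spread among these libraries, which may be technical. Since these are bulk samples, fewer cells of a type and less RNA per cell cannot be told apart.

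As background, the pathway starts with kinases that phosphorylate the alpha subunit of translation factor eIF2: GCN2 (Eif2ak4) when uncharged tRNA builds up, HRI (Eif2ak1) when haem is short or mitochondria fail, PERK (Eif2ak3) when proteins misfold in the endoplasmic reticulum, and PKR (Eif2ak2) on double-stranded RNA. Phosphorylated eIF2 slows general protein synthesis while the mRNA of the transcription factor ATF4 is translated more, so the level of Atf4 mRNA is not a measure of ATF4 protein. ATF4 pairs with C/EBP proteins on a composite DNA element and turns on genes that import and make amino acids, and under lasting stress also CHOP (Ddit3), ATF3 and GADD34 (Ppp1r15a), the last of which returns phosphatase to eIF2 and restarts translation. In macrophages this programme supplies amino acids and cystine during LPS stimulation and shapes cytokine production.

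The libraries held 36445462 to 59236599 reads, recovered from the TPM values, and each member had 200 to 34885 reads in each library, the fewest for Pycr1. Cd74, the targeted gene, stood at 632, 593 and 594 TPM in Control and at 65.3, 64.6 and 63.1 TPM in Knockout libraries, so it was lower but not absent there. Its 3 Control values are whole reads at the annotated gene length, and 0 of its 3 Knockout values are. The table held 28 rows that are not whole reads in all libraries at any length, and in 21 of these all 3 Control values, but not all Knockout values, are whole at the annotated length. The Knockout values of such rows lack the form that counted reads give in the other rows, and how they were made is not given in the sources used here. Whether they were altered after counting was not tested, and the Cd74 level is therefore not used as a check of the labels. Of the 28 rows, 0 are members: all 32 members are whole reads in all 6 libraries at their annotated length. Of 13 macrophage markers, 8 had a row and 7 reached a mean of 1 TPM, with a summed level of 10597 to 11142 TPM in Control and 13941 to 15190.1 TPM in Knockout libraries. Their directions differed: Adgre1 (F4/80) stood at 486 to 494 TPM in Control and 293 to 352 TPM in Knockout libraries. Csf1r, the M-CSF receptor gene, stood at 134 to 154 and 221 to 291 TPM. Lyz2, the largest part of the sum, stood at 4966 to 5622 TPM in Control and 8102 to 9547 TPM in Knockout libraries. Cd68 (1741 to 1876 and 1886 to 1927 TPM) and Cd14 (2778 to 2897 and 2921 to 3094 TPM) differed far less. Mertk, Maf, C1qa, C1qb and C1qc had no row, and the class II genes H2-Aa, H2-Ab1 and H2-Eb1 stayed under 1 TPM in every library. Of 8 neutrophil markers 3 had a row (17.6 to 18.1 TPM summed in Control and 23.8 to 29.3 TPM in Knockout libraries, with S100a9, Ly6g, Mpo, Elane and Ltf without a row; S100a8 was at 4.20 to 5.71 and 15.8 to 22.5 TPM, Csf3r at 11.05 to 13.6 and 6.74 to 7.93 TPM), and of 5 mast cell or basophil markers only Hdc, the histidine decarboxylase gene, had one (21.9 to 31.2 and 4.37 to 9.03 TPM). Of 8 dendritic cell markers 6 had a row (1.39 to 2.44 and 2.02 to 4.13 TPM summed). The summed levels of the B cell list (2 of 4 with a row, 7.92 to 10.2 and 11.9 to 12.7 TPM), the T cell list (1 of 5, Lck, 12.6 to 13.9 and 10.8 to 11.3 TPM), the erythroid list (2 of 4, at most 0.625 TPM) and the stromal list (3 of 4, at most 0.622 TPM) were low. The part of these marker differences in the results below was not tested.

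Promoter sequences are shown because ATF4 and its partners are known to act through a short element. Whether that element has a part in the differences below was not tested. RefSeq promoters (build GRCm38.p6, from 250 bases before to 50 bases after each transcription start) were given for 29 of the 33 members, and not for Cth, Eif4ebp1, Ppp1r15b and Slc7a5. The core of the C/EBP-ATF composite element, TGATGNAA on either strand, was found in promoters of 8 of the 29 members (27.6%), against 4.51% of all 27025 genes with a promoter and 2.85% of the 9126 tested genes with one. The 8 were Atf3, Chac1, Trib3, Slc7a11, Asns, Nupr1, Pycr1 and Vldlr. Since the members were listed as genes of the ATF4 programme, a share above that of all genes may be built into the list. It is not a result of these libraries. The palindrome TGACGTCA, the full ATF/CRE site, was in 1 of the 29 (Ppp1r15a, 3.45%), against 2.03% of all genes with a promoter and 3.80% of the tested ones. A match is a description of letters and not evidence of binding, and a promoter without one may hold other forms of the element. The stretches below show the matches in capitals for 6 composite elements in genes whose transcripts fell, for Slc7a11, which has a pair of them and was not called, and for the palindrome of Ppp1r15a. Each is read 5′ to 3′ in the direction of the gene, and apart from Trib3 ends before the start site. TTGCATCA and TTACATCA are the element read from the other strand. The Asns stretch is chr6:7693210-7693329, minus strand, that of Atf3 chr1:191183380-191183499, minus strand, that of Nupr1 chr7:126625517-126625636, minus strand, and that of Chac1 chr2:119350993-119351112, plus strand. Pycr1 is shown over chr11:120643788-120643907, minus strand, Slc7a11 over chr3:50443614-50443733, minus strand, Ppp1r15a over chr7:45526269-45526388, minus strand, and Trib3 over chr2:152344028-152344057, minus strand, a window of 30 bases just after the start.
Asns: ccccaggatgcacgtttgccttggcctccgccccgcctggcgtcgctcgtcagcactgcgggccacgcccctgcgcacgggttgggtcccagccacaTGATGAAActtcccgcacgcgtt
Atf3: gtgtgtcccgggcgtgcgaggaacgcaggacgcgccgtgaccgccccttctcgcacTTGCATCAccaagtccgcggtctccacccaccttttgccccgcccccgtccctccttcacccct
Nupr1: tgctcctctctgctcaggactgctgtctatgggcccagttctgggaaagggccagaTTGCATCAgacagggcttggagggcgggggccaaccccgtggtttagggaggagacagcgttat
Chac1: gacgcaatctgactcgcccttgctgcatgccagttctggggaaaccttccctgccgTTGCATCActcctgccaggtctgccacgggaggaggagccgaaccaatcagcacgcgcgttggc
Pycr1: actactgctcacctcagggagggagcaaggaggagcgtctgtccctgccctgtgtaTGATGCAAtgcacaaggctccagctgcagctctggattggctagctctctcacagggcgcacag
Trib3: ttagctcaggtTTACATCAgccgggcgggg
Slc7a11: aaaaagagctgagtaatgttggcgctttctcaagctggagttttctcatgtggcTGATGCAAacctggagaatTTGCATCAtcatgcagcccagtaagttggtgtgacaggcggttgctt
Ppp1r15a: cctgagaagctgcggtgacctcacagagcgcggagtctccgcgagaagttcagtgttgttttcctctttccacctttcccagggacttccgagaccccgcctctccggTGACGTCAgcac

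Counted from the start site, the element lies at -23 to -16 in Asns, at -110 to -103 in both Atf3 and Nupr1, at -103 to -96 in Pycr1, at -193 to -186 in Chac1 and at 15 to 22 in Trib3. The Slc7a11 promoter carries it at -66 to -59 on the strand of the gene and again at -47 to -40 on the other strand. The palindrome of Ppp1r15a lies at -12 to -5.

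Members were mostly lower in the Knockout libraries. Of the 32 tested, 18 were lower, 3 were higher and 11 were not called at a Benjamini-Hochberg adjusted p under 0.05 in limma over all tested rows, where 10.1% of rows were called lower and 18.5% higher. The median difference over the members was -0.36 on the log2(TPM + 1) scale, against 0.04 over all tested rows, and members ran from -1.36 (Ppp1r15a) to 0.25 (Ppp1r15b). All Knockout values lay under all Control values for 19 members, against 19.8% of tested rows, and above them for 5, against 30.2% of tested rows. The 5 members lowest on this scale were Ppp1r15a, Gadd45a, Ddit3, Nupr1 and Atf3 (-1.36 to -1.03). The 7 falls in amino acid synthesis ran from -0.74 to -0.33. Of the listed genes, 0 of the 3 mitochondrial one-carbon enzymes and 1 of the 4 transporters were called lower. Summed over the 32 genes, the level was 7209, 7026 and 6967 TPM in the Control libraries and 5294, 5211 and 4899 TPM in the Knockout libraries, without overlap. Library values below are given in the order of replicates 1 to 3.

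**Figure D1:**
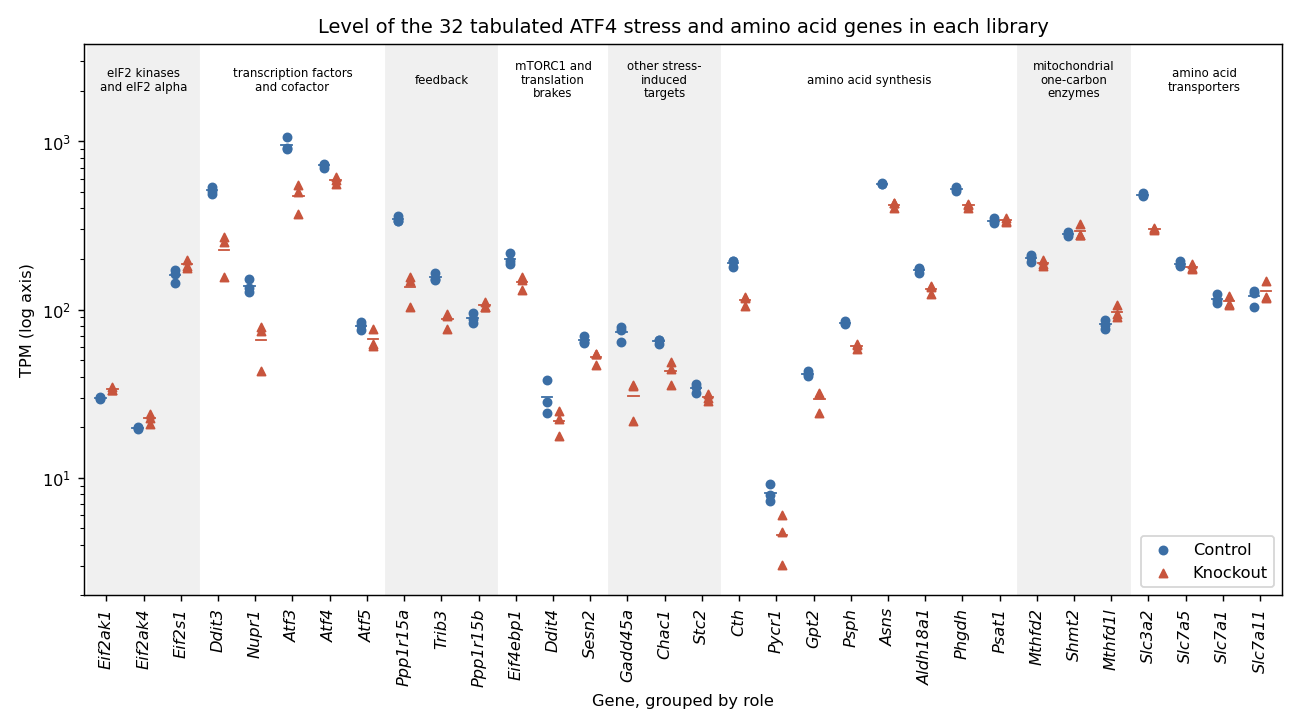
TPM (log axis) of the 32 members with a row, grouped by role on the horizontal axis; circles are the 3 Control and triangles the 3 Knockout libraries, and short lines are group means. The groups separate widely for Ppp1r15a, Gadd45a, Ddit3, Nupr1 and Atf3, and overlap for Psat1, Shmt2, Slc7a5, Slc7a1 and Slc7a11.

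**Figure D2:**
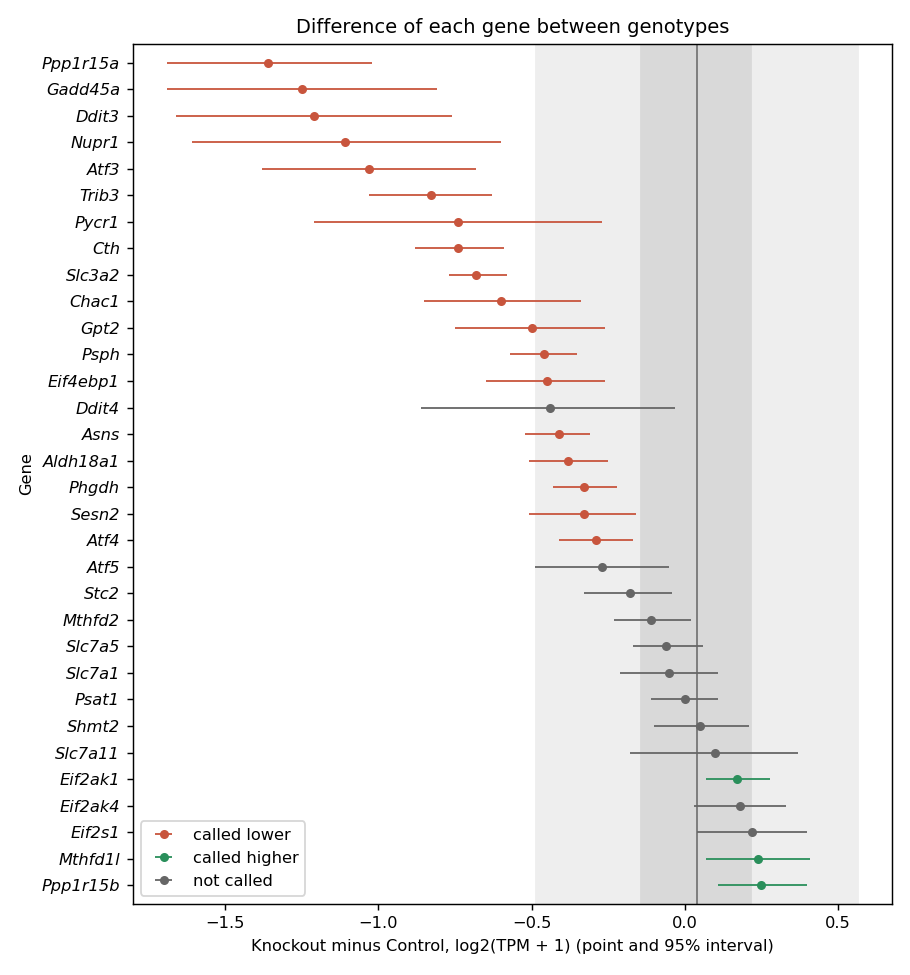
Knockout minus Control on the log2(TPM + 1) scale for each member, with the 95% interval of the limma fit; the dark and light bands span the rows from the 25th to the 75th percentile (-0.14 to 0.22) and from the 5th to the 95th (-0.49 to 0.57) over all 13034 tested rows and the line is their median (0.04). Colours mark members called lower (18), called higher (3) and not called (11).

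At the head of the pathway, 0 of the 3 transcripts for kinases and eIF2 alpha were called lower. Eif2ak1 stood at 29.6, 29.6 and 30.04 TPM in the Control libraries and at 33.2, 34.6 and 33.3 TPM in the Knockout libraries. HRI, its product, is the haem-regulated kinase, and the transcript rose from 29.7 ± 0.257 to 33.7 ± 0.747 TPM (SD, n = 3 each; log2 fold change 0.17, SE 0.05, limma adjusted p = 0.0295). This call ended under both scalings, limma-voom, the replicate block and in 5 of the 6 fits that leave out 1 library (all but Knockout replicate 3), and 487 of the gene's 5670 exon bases overlap Aimp2 on the opposite strand, whose reads cannot be told apart without a stated strand. For Eif2ak4, the Control values were 20.03, 19.8 and 19.4 TPM and the Knockout values 24.1, 22.6 and 20.9 TPM. This gene encodes GCN2, the sensor of amino acid shortage, and although the groups did not overlap the difference of 0.18 on the log2 scale (95% interval 0.03 to 0.33, limma adjusted p = 0.0738) was not called. Eif2s1 measured 144, 164 and 171 TPM in Control and 177, 182 and 198 TPM in Knockout libraries. Eif2s1 encodes the eIF2 subunit that the kinases modify, and its difference of 0.22 on the log2 scale (95% interval 0.04 to 0.40, limma adjusted p = 0.0724) was not called either, again without overlap; without Control replicate 1 it was 0.14.

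Among the transcription factors, 4 of 5 fell. Atf4 stood at 737, 697 and 727 TPM in the Control libraries and at 589, 615 and 559.8 TPM in the Knockout libraries. The groups of this central factor did not overlap, and it fell from 721 ± 20.8 to 588 ± 27.6 TPM (SD, n = 3 each; log2 fold change -0.29, SE 0.05, limma adjusted p = 0.00818), to 81.6% of Control. For Atf3, the Control values were 1067, 909.9 and 902 TPM and the Knockout values 554, 500.5 and 369 TPM. ATF3 is an early stress factor that restrains inflammatory genes, and its transcript, with a mean of 959.5 TPM the highest of the set in Control, fell from 959.5 ± 92.9 to 474 ± 95.7 TPM (SD, n = 3 each; log2 fold change -1.03, SE 0.15, limma adjusted p = 0.00509). Ddit3 stood at 539, 489 and 507 TPM in the Control libraries and at 269.8, 254 and 156 TPM in the Knockout libraries. Ddit3 encodes CHOP, the factor tied to lasting stress and cell death, and fell from 512 ± 25.1 to 227 ± 61.5 TPM (SD, n = 3 each; log2 fold change -1.21, SE 0.19, limma adjusted p = 0.00618), to 44.3% of Control. Nupr1 measured 152, 128 and 135 TPM in Control and 79.00, 75.03 and 43.1 TPM in Knockout libraries. NUPR1 is a small stress-induced chromatin protein, and its transcript fell from 138 ± 12.3 to 65.7 ± 19.7 TPM (SD, n = 3 each; log2 fold change -1.11, SE 0.22, limma adjusted p = 0.0114). In each of the last 3 genes Knockout replicate 3 was the lowest library by a clear gap. For Atf5, the Control values were 75.8, 80.8 and 84.3 TPM and the Knockout values 62.2, 61.2 and 76.9 TPM. ATF5 resembles ATF4 in sequence and acts in the mitochondrial stress response; 1 Knockout library reached into the Control range, and the difference of -0.27 on the log2 scale (95% interval -0.49 to -0.05, limma adjusted p = 0.0683) was not called.

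The feedback genes split between the inducible and the constitutive subunit of the eIF2 phosphatase. Ppp1r15a stood at 362, 338 and 335 TPM in the Control libraries and at 157, 148 and 104 TPM in the Knockout libraries. The inducible subunit gene (GADD34) had the steepest fall of the set, from 345 ± 15.02 to 136 ± 28.1 TPM (SD, n = 3 each; log2 fold change -1.36, SE 0.14, limma adjusted p = 0.00264), to 39.5% of Control. For Ppp1r15b, the Control values were 83.4, 95.2 and 88.6 TPM and the Knockout values 104, 104 and 110.4 TPM. Its constitutive relative, CReP, rose from 89.04 ± 5.90 to 106 ± 3.62 TPM (SD, n = 3 each; log2 fold change 0.25, SE 0.06, limma adjusted p = 0.0208), with all Knockout values above all Control values. The rise lost its call without Control replicate 1 or 3 or Knockout replicate 2 (adjusted p up to 0.0699), and 640 of its 5594 exon bases overlap Gm26616 on the opposite strand. Trib3 measured 165, 153 and 149 TPM in Control and 91.96, 93.8 and 76.7 TPM in Knockout libraries. TRIB3 is a pseudokinase that ATF4 and CHOP induce and that holds both in check, and its transcript fell from 156 ± 8.12 to 87.5 ± 9.39 TPM (SD, n = 3 each; log2 fold change -0.83, SE 0.08, limma adjusted p = 0.0025).

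The genes that slow growth signalling or translation fell or were not called. Eif4ebp1 stood at 218, 186 and 195 TPM in the Control libraries and at 156, 149.5 and 132 TPM in the Knockout libraries. Eif4ebp1 encodes 4E-BP1, which blocks cap-dependent translation, and fell from 199.7 ± 16.2 to 146 ± 12.6 TPM (SD, n = 3 each; log2 fold change -0.45, SE 0.08, limma adjusted p = 0.00955). For Sesn2, the Control values were 64.2, 69.4 and 63.7 TPM and the Knockout values 54.4, 54.8 and 46.9 TPM. SESN2 senses leucine and restrains the growth kinase complex mTORC1, and its transcript fell from 65.8 ± 3.14 to 52.05 ± 4.42 TPM (SD, n = 3 each; log2 fold change -0.33, SE 0.07, limma adjusted p = 0.0159), a call lost without Control replicate 2 (adjusted p = 0.0539). Ddit4 measured 37.9, 24.3 and 28.1 TPM in Control and 24.9, 22.5 and 17.7 TPM in Knockout libraries. DDIT4 is another inhibitor of mTORC1. Its groups overlapped, Control replicate 1 standing above the rest, and the difference of -0.44 on the log2 scale (95% interval -0.86 to -0.03, limma adjusted p = 0.0988) was not called; without Control replicate 1 it was -0.27.

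Of the remaining stress-induced targets with a row, 2 of 3 fell. Gadd45a stood at 79.03, 64.4 and 76.1 TPM in the Control libraries and at 34.9, 35.8 and 21.7 TPM in the Knockout libraries. GADD45A acts in growth arrest and DNA repair, and its transcript fell from 73.2 ± 7.76 to 30.8 ± 7.91 TPM (SD, n = 3 each; log2 fold change -1.25, SE 0.19, limma adjusted p = 0.00555), while 337 of its 1764 exon bases overlap E230016M11Rik on the opposite strand. For Chac1, the Control values were 62.5, 65.96 and 66.4 TPM and the Knockout values 44.4, 48.8 and 35.7 TPM. CHAC1 breaks down the antioxidant glutathione, and its transcript fell from 64.9 ± 2.15 to 42.96 ± 6.65 TPM (SD, n = 3 each; log2 fold change -0.60, SE 0.11, limma adjusted p = 0.00909). Stc2 measured 32.1, 34.8 and 36.00 TPM in Control and 28.8, 29.9 and 31.4 TPM in Knockout libraries. Stc2 encodes a secreted glycoprotein of the stanniocalcin family. Its groups did not overlap, yet the difference of -0.18 on the log2 scale (95% interval -0.33 to -0.04, limma adjusted p = 0.0628) was not called.

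Transcripts of 7 of the 8 listed amino acid synthesis genes fell, to differing degrees. Cth stood at 180.5, 195 and 193 TPM in the Control libraries and at 118, 117 and 105 TPM in the Knockout libraries. CTH makes cysteine from cystathionine, and its transcript fell from 189.8 ± 8.09 to 114 ± 7.55 TPM (SD, n = 3 each; log2 fold change -0.74, SE 0.06, limma adjusted p = 0.00143). For Asns, the Control values were 557, 568 and 558 TPM and the Knockout values 432, 428 and 404 TPM. Asparagine synthetase, a classic ATF4 target, fell from 561 ± 6.19 to 421 ± 15.7 TPM (SD, n = 3 each; log2 fold change -0.41, SE 0.04, limma adjusted p = 0.00269), a small but tight difference with the lowest Control library at 557 and the highest Knockout library at 432 TPM. Gpt2 measured 43.3, 41.6 and 40.2 TPM in Control and 32.1, 31.5 and 24.3 TPM in Knockout libraries. GPT2 is the mitochondrial alanine transaminase, and its transcript fell from 41.7 ± 1.57 to 29.3 ± 4.33 TPM (SD, n = 3 each; log2 fold change -0.50, SE 0.10, limma adjusted p = 0.0137), a call lost without Control replicate 1 (adjusted p = 0.0513).

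Of the 3 consecutive enzymes of serine synthesis, the first and the last fell and the middle one was not called. Phgdh stood at 525, 536 and 505 TPM in the Control libraries and at 425, 405 and 418 TPM in the Knockout libraries. PHGDH starts the pathway from a glycolytic intermediate, and its transcript fell from 522 ± 15.7 to 416 ± 10.4 TPM (SD, n = 3 each; log2 fold change -0.33, SE 0.04, limma adjusted p = 0.00448). For Psat1, the Control values were 327, 352 and 338 TPM and the Knockout values 334, 335 and 350.0 TPM. Psat1, the middle enzyme, was not called, with overlapping groups and a difference of 0.00 on the log2 scale (95% interval -0.11 to 0.11, limma adjusted p = 0.97), so a fall as large as that of Phgdh lies outside its interval. Psph measured 85.7, 82.7 and 83.1 TPM in Control and 61.9, 62.2 and 58.2 TPM in Knockout libraries. The last enzyme, PSPH, releases serine, and its transcript fell from 83.8 ± 1.62 to 60.8 ± 2.23 TPM (SD, n = 3 each; log2 fold change -0.46, SE 0.05, limma adjusted p = 0.00256), with 452 of 4329 exon bases shared with a noncoding Cct6a model on the opposite strand.

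Both proline synthesis genes fell. Aldh18a1 stood at 175, 177 and 166 TPM in the Control libraries and at 138, 137 and 124 TPM in the Knockout libraries. ALDH18A1 turns glutamate into the proline precursor, and its transcript fell from 173 ± 5.64 to 133 ± 7.60 TPM (SD, n = 3 each; log2 fold change -0.38, SE 0.06, limma adjusted p = 0.00555). For Pycr1, the Control values were 9.20, 7.90 and 7.29 TPM and the Knockout values 5.97, 4.76 and 3.02 TPM. Pycr1 encodes a mitochondrial reductase of the last step, and this lowest of the 32 genes fell from 8.13 ± 0.974 to 4.59 ± 1.48 TPM (SD, n = 3 each; log2 fold change -0.74, SE 0.20, limma adjusted p = 0.0326). The Pycr1 call ended without any 1 of the Control libraries or without Knockout replicate 2 (adjusted p up to 0.105).

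The mitochondrial one-carbon enzymes, which pass a carbon from serine to formate for nucleotide synthesis, held 0 calls of a fall among 3 genes. Shmt2 stood at 273, 288 and 282 TPM in the Control libraries and at 277, 278 and 322 TPM in the Knockout libraries. Shmt2, the entry enzyme, differed by 0.05 on the log2 scale (95% interval -0.10 to 0.21, limma adjusted p = 0.574). For Mthfd2, the Control values were 193, 211 and 206 TPM and the Knockout values 182, 187 and 196 TPM. Mthfd2, the dehydrogenase next in line, differed by -0.11 on the log2 scale (95% interval -0.23 to 0.02, limma adjusted p = 0.175). Neither was called, both had overlapping groups, and the Shmt2 difference was -0.02 without Knockout replicate 3. Mthfd1l measured 81.4, 86.6 and 77.2 TPM in Control and 93.9, 90.3 and 106 TPM in Knockout libraries. The formate-releasing enzyme gene Mthfd1l rose from 81.7 ± 4.69 to 96.8 ± 8.37 TPM (SD, n = 3 each; log2 fold change 0.24, SE 0.07, limma adjusted p = 0.0485). That call stands at the threshold and ended in 10 of 14 other settings (adjusted p up to 0.146), though the groups did not overlap.

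Of the amino acid transporters, the shared heavy chain fell and its partners did not pass the test. Slc3a2 stood at 493, 484 and 474 TPM in the Control libraries and at 306, 302 and 297 TPM in the Knockout libraries. SLC3A2 (CD98 heavy chain) carries several light chains to the cell surface, and its transcript fell from 484 ± 9.15 to 302 ± 4.79 TPM (SD, n = 3 each; log2 fold change -0.68, SE 0.04, limma adjusted p = 0.000441), the smallest adjusted p of the set. For Slc7a5, the Control values were 184, 194 and 183 TPM and the Knockout values 174, 177 and 188 TPM. Slc7a5 (LAT1), the light chain for large neutral amino acids, differed by -0.06 on the log2 scale (95% interval -0.17 to 0.06, limma adjusted p = 0.423). Slc7a11 measured 104, 129.9 and 126 TPM in Control and 119.7, 117 and 149 TPM in Knockout libraries. Slc7a11 (xCT), which pairs with the same heavy chain to import cystine, differed by 0.10 on the log2 scale (95% interval -0.18 to 0.37, limma adjusted p = 0.567). A fall as large as that of Slc3a2 lies outside both intervals. Slc7a1 stood at 109, 123 and 115 TPM in the Control libraries and at 109, 107 and 121 TPM in the Knockout libraries. Slc7a1, a carrier of arginine and lysine that works without the heavy chain, differed by -0.05 on the log2 scale (95% interval -0.21 to 0.11, limma adjusted p = 0.631). Groups overlapped for these 3 genes, and the Slc7a11 difference was 0.00 without Control replicate 1 and -0.01 without Knockout replicate 3.

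Ratios of 2 members within a library do not depend on how libraries are scaled, and 8 were computed, chosen after the values were seen. The ratio of Ddit3 to Atf4 TPM was 0.730, 0.701 and 0.698 in the Control libraries and 0.458, 0.413 and 0.279 in the Knockout libraries, a log2 difference of -0.92, and that of Atf3 to Atf4 was 1.45, 1.30 and 1.24 in the Control libraries and 0.942, 0.814 and 0.658 in the Knockout libraries, a log2 difference of -0.74. Both downstream factors stood lower against Atf4 itself in every Knockout library. The inducible phosphatase subunit stood at 4.35, 3.55 and 3.78 in the Control libraries and 1.51, 1.42 and 0.945 in the Knockout libraries for each unit of the constitutive one (-1.62 on the log2 scale). For the heavy chain over its light chains, the ratio to Slc7a5 was 2.68, 2.49 and 2.60 in the Control libraries and 1.76, 1.70 and 1.58 in the Knockout libraries (-0.62), and the ratio to Slc7a11 was 4.73, 3.73 and 3.75 in the Control libraries and 2.56, 2.58 and 1.99 in the Knockout libraries (-0.78). Against Psat1, the log2 difference was -0.42 for Asns, -0.33 for Phgdh and -0.47 for Psph. The groups did not overlap for any of the 8 ratios. The exact two-sided permutation test gave p = 0.1 for each, and 0.1 also after Benjamini-Hochberg adjustment over the 8. This is the smallest value that 3 against 3 libraries allow and does not reach 0.05. Because the pairs were picked with the values known, the missing overlap and this p-value add no support to the single-gene results.

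**Figure D3:**
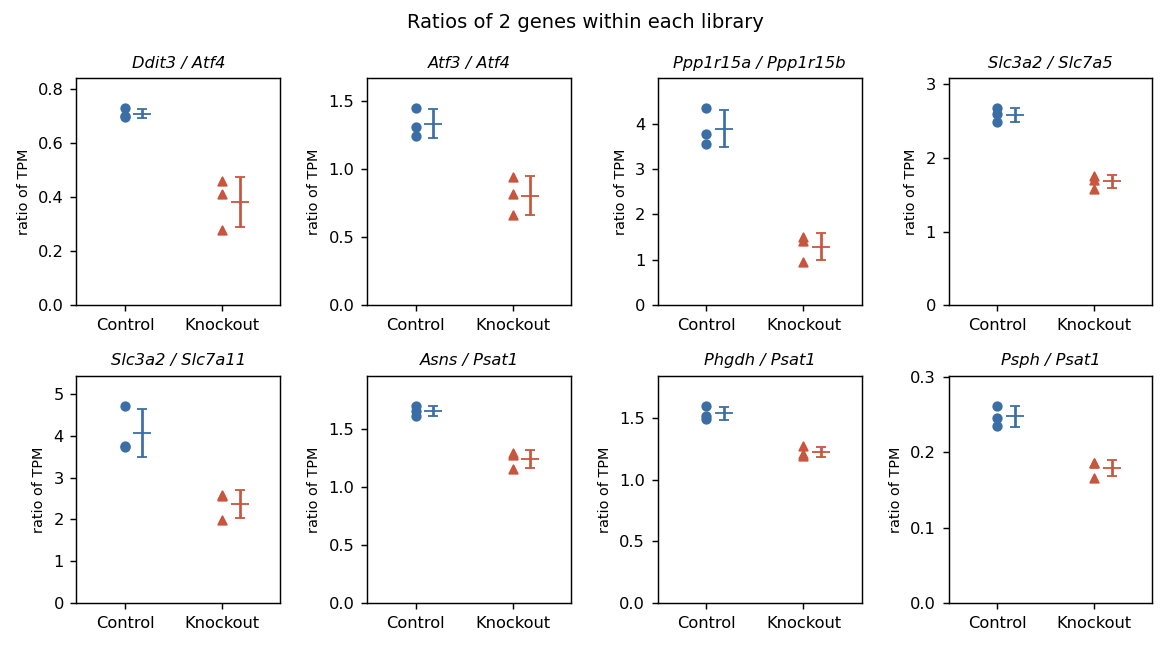
Ratio of the TPM of 2 members within each library (vertical axes start at 0), for the Control (circles) and Knockout (triangles) libraries, with mean and SD beside the points. In all 8 panels each Knockout value lies under each Control value, and the pairs were chosen after the values were seen.

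The Knockout libraries differed among themselves. Knockout replicate 3 was the lowest Knockout library for 19 of the 32 members, against 44.1% of all tested rows, and the highest for 11, against 38.6%. It was the lowest for 17 of the 18 members called lower, all but Phgdh. The library itself enters those calls, and the matching share over all rows called lower is not given here, so this count is no trait of the members. Among the members with steep falls, in which this library itself takes part, it stood on the log2 scale of TPM -0.84 from the mean of Knockout replicates 1 and 2 for Nupr1, -0.75 for Ddit3, -0.71 for Gadd45a, -0.55 for Ppp1r15a and -0.52 for Atf3, against -0.04 for Slc3a2 and -0.09 for Asns. For Pycr1 the value was -0.83. In the other direction the same library stood 0.33 above for Slc7a11 and 0.32 for Atf5. Without it 20 members were called lower, 18 of them those called lower with it, and the median over the members was -0.33. The 5 falls of at least 1 on the log2 scale then lay between -1.17 (Ppp1r15a) and -0.83 (Nupr1), where with it they lay between -1.36 (Ppp1r15a) and -1.03 (Atf3).

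**Figure D4:**
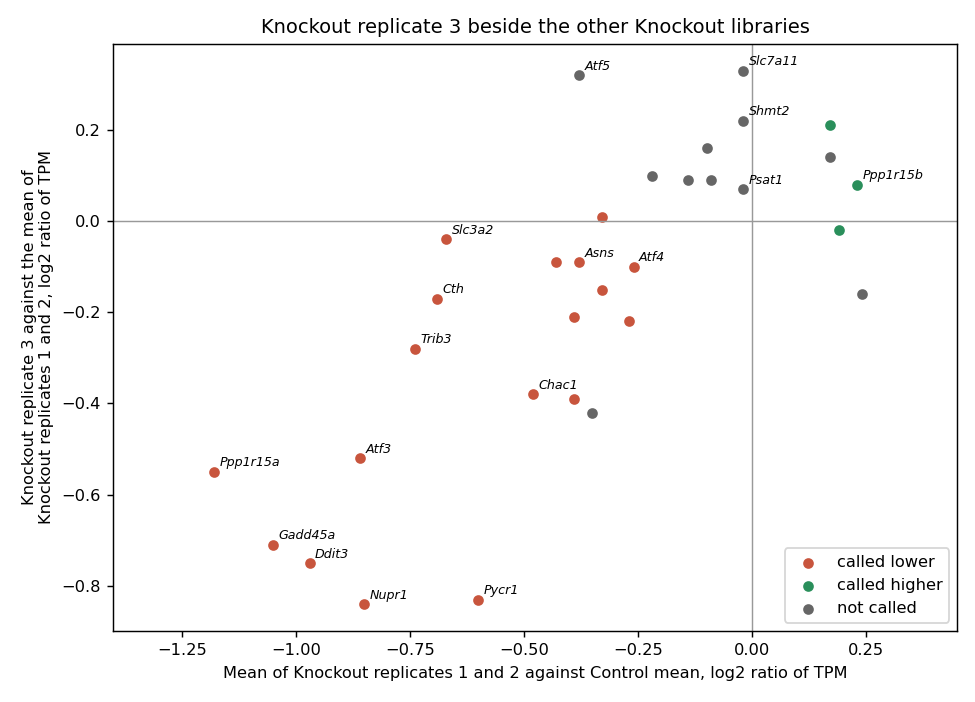
Each point is a member: the horizontal axis is the log2 ratio of the mean TPM of Knockout replicates 1 and 2 to the Control mean, and the vertical axis the log2 ratio of Knockout replicate 3 to that same Knockout mean, so both axes hold Knockout replicates 1 and 2. Ppp1r15a, Gadd45a, Ddit3, Nupr1, Atf3 and Pycr1 lie lowest on the vertical axis (-0.52 or less), while Slc3a2 and Asns lie near 0.

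Other genes of the pathway, from 4 lists of genes outside the 33, are given by counts beside the same background of 10.1% lower and 18.5% higher. These lists too were chosen with earlier results of these data known. Among 29 tested genes reported as ATF4 targets or partners, 19 fell and 2 rose (median -0.35). Many of the 29 belong to 1 family, the aminoacyl-tRNA synthetases, which load amino acids onto tRNA. Called falls in that family ran from -0.50 (Wars) to -0.15 (Iars), while Yars (-0.09), Tars (-0.09) and Mars1 (0.10) were not called. Cebpb, the gene of a C/EBP factor that pairs with ATF4, fell from 147 ± 17.4 to 46.5 ± 10.4 TPM (log2 fold change -1.65). Cebpg, another C/EBP gene, fell less, from 53.4 ± 1.47 to 38.4 ± 1.11 TPM (-0.47). The mitochondrial folate enzyme gene Aldh1l2 fell from 109 ± 7.99 to 43.6 ± 12.7 TPM (-1.35). The autophagy receptor gene Sqstm1, which NRF2 also drives, fell from 6285 ± 638 to 3163 ± 677 TPM (-1.01). Spreads for these 4 genes are SD, n = 3 each. The rises were Slc1a5, a glutamine carrier gene (0.53), and Jdp2, the gene of a transcriptional repressor (0.48). Of the other amino acid carrier genes tested in this list, Slc6a9 (-0.57) and Slc1a4 (-0.39) fell and Slc38a2 (0.09) was not called. Fgf21 and Sesn3 had no row. Of 16 unfolded protein response genes, 10 fell and 1 rose (median -0.23). Hspa5, the chaperone BiP, is 1 of the 28 rows that are not whole reads, and without such rows 9 fell. Ern1, the sensor kinase IRE1, fell by 0.69 and Sel1l by 0.50 on the log2 scale, and Edem1 rose by 0.24. The count of falls went to 6 without Control replicate 1 or 3 and to 5 without Knockout replicate 2.

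The eIF2 machinery beside the members moved both ways: of 11 genes 5 rose and 2 fell (median 0.10). Eif2ak2, the kinase PKR and an interferon-induced gene, rose from 93.7 ± 5.23 to 135 ± 7.31 TPM (SD, n = 3 each; 0.52), Eif2b1 by 0.37 and Eif2s3x by 0.28, while Eif2s2 (-0.22) and Eif2b2 (-0.19) fell. Eif2ak3, the kinase PERK, was not called (0.08). The rises went to 1 without Control replicate 1 or 3, to 2 without Knockout replicate 2, to 3 without Control replicate 2 or Knockout replicate 3, and to 2 under both scalings. The falls went to 0 without Control replicate 3 and to 1 without Control replicate 2 or Knockout replicate 1 or 2. Of 18 other tested amino acid and one-carbon enzymes 3 rose and 3 fell (median 0.09). The cytosolic one-carbon genes Shmt1 (0.66) and Mthfd1 (0.50) rose with Pycrl (0.26), a relative of Pycr1, while Ass1, which makes argininosuccinate (-0.78), and Got1 (-0.35), an aspartate transaminase gene, were among those that fell.

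**Figure D5:**
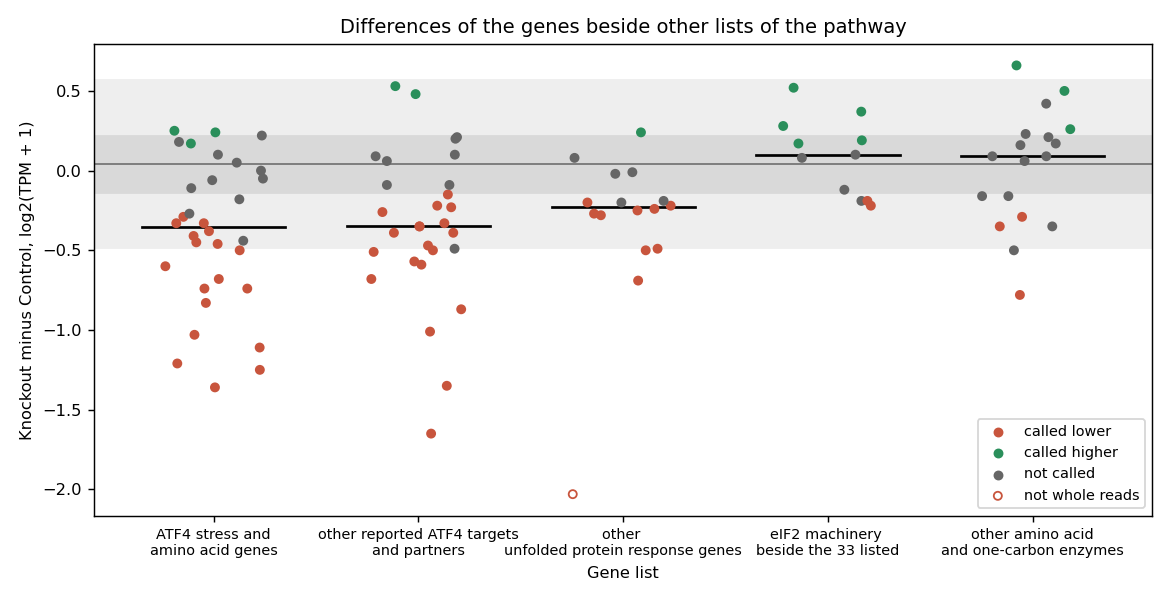
Knockout minus Control on the log2(TPM + 1) scale for each tested gene of the members and of 4 other lists of the pathway, coloured by call, with the list median as a black line; bands and line behind show all tested rows (25th to 75th and 5th to 95th percentile, and median). The medians are -0.36 for the members, -0.35 for other ATF4 targets, -0.23 for the unfolded protein response, 0.10 for the eIF2 machinery and 0.09 for the other enzymes; the open point is Hspa5.

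Scaling changed the balance over the whole table more than the falls of the members. Rises made up 64.7% of all calls as deposited, 51.5% with median-of-ratios scaling and 48.2% with upper-quartile scaling, and the members called lower numbered 18, 19 and 20 in turn, with the 18 contained in each. The members called higher went from 3 to 1 under both scalings, the 1 being Ppp1r15b. Of the 18 falls, 15 were called in every one of the 14 other settings run, the exceptions being Pycr1, Gpt2 and Sesn2.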

How the data were processed

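RNA of 3 Control and 3 Knockout libraries was measured by bulk sequencing, and samples were grouped by their titles. The authors deposited 1 table of TPM values, a unit read from the values (columns sum to 991721 to 998572), since the file header names none, with 0 columns of per-sample values left unmapped. Per the submitters' processing notes the build is GRCm39 and a tool was DESeq2, neither with a stated role; the aligner, the counting tool, its strand setting and the annotation are not given in the sources used here.

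Reads were recovered as TPM times gene length over a step found for each library. With union exon lengths of GENCODE M21, 16508 of 17217 rows (95.9%) were whole within 0.02 read in all 6 libraries, 681 more at another length within 0.003 read, and 28 at none up to 200000 bp. The match to M21, an annotation of GRCm38, was used for lengths and overlaps; coordinates are of GRCm38.

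Rows with a mean under 1 TPM were left out. Genotypes were compared on the log2(TPM + 1) scale by limma 3.58.1 (R 4.3.3), using the trended and robust empirical Bayes options. P-values are two-sided and were adjusted by Benjamini-Hochberg across the 13034 rows, with a threshold of 0.05. Fold changes on this scale understate the change of low genes. This limma step was tested on simulated data with known changes. The alternatives were other pseudocounts, filters and scalings, limma-voom on recovered reads with totals as library sizes, a replicate block, removal of rows that are not whole reads, and leaving out each library. The members and lists were chosen with earlier results of these data known. All 33 members are named, and from each other list up to 3 called genes with the largest change in each direction. Eif2ak3, Cebpg, Slc6a9, Slc1a4, Slc38a2, Wars, Iars, Yars, Tars and Mars1 were added after their values were seen. The values of 1 gene that this rule would name are not reported here.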

Additional observations from a re-analysis of the deposited data

How the results depend on the processing

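Of the 14 alternatives, each recomputed for every member, 408 member values kept their side of the threshold, 28 lost a call, 12 gained one and 0 reversed a called direction. Members called lower numbered 18 to 21 with all libraries in the fit and 16 to 20 with 1 library left out; members called higher numbered 1 under median-of-ratios and 1 under upper-quartile scaling, and 0 to 3 with 1 library left out (0 without Control replicate 1, Control replicate 3 or Knockout replicate 2, 1 without Control replicate 2 or Knockout replicate 1). The median over the members was -0.41 to -0.33 throughout. Over all rows, leaving out 1 library gave 1312 to 2094 rises and 666 to 1222 falls, where the full set gave 2406 and 1313; the falls went to 716, 769 and 666 without Control replicate 1, 2 or 3 and to 872 without Knockout replicate 2, and the rises to 1411, 1312 and 1585 without Control replicate 1, Control replicate 3 or Knockout replicate 2. With the replicate block, 21 members were lower, Atf5, Ddit4 and Stc2 beside the 18, and 2 were higher (Eif2s1 and Ppp1r15b), with 2331 rises and 1380 falls in all. Libraries with equal numbers did not deviate together (correlations of 0.134, -0.0766 and 0.0315 for the 3 pairs) and share no stated origin. Rises in the eIF2 machinery list numbered 3 under limma-voom, 3 with no filter, 2 under median-of-ratios and 2 under upper-quartile scaling, and 1 to 5 with 1 library left out. Its falls numbered 1 with no filter and 0 to 2 with 1 library left out. Falls in the unfolded protein response list numbered 5 to 12 with 1 library left out. The cause of these shifts was not tested; each such fit has fewer libraries or another scale. Depth limits Pycr1 most, with 200 to 499 reads in a library.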

Other observations

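Over all tested genes with a RefSeq promoter, the composite element core TGATGNAA was found in 61 of 1007 genes called lower (6.06%), 38 of 1861 called higher (2.04%) and 161 of 6258 not called (2.57%). Among members with a promoter it was found in 6 of 16 called lower and in 1 of 10 not called, Slc7a11. The palindrome TGACGTCA was in 44 of the 1007 (4.37%), 68 of the 1861 (3.65%) and 235 of the 6258 (3.76%). These shares are descriptions, and the 61 include the 6 members.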
